A study of Drosophila melanogaster with 2 samples.

Results

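The Cpr genes of the fruit fly encode structural proteins of the cuticle, the chitin and protein layer that covers the body. They were taken as all protein-coding genes of the Ensembl annotation whose symbol is Cpr followed by a digit, which gave 70 genes of 13945 protein-coding genes. The gene named Cpr alone is a cytochrome P450 reductase and no cuticle gene, and was kept out by the digit. Symbols carry the band of the polytene map at which a gene lies, so Cpr72Eb is a gene of band 72E. The members lie on 2R (21 genes), 3L (35), 2L (5), 3R (5) and X (4), and 45 of them stand in 10 clusters of 3 or more.

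The study holds a single group: 2 biological replicates, each from whole pupae of the fruit fly at 48 h with both sexes mixed, of a stable transgenic line that carries CG8301 with GFP at its C terminus. No source used here gives the promoter of the fusion or the state of the endogenous CG8301 gene. The labels contradict themselves: by antibody and assay these are transcription factor ChIP-seq libraries for CG8301, but by their descriptions they are input controls. The regions below are therefore regions of these libraries, and are not assigned to the fused protein.

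Proteins of this family carry the Rebers and Riddiford consensus, a stretch that binds chitin. Epidermal cells make each cuticle afresh at a moult, and the cuticle genes are switched on for short times in the wake of ecdysone pulses, with different members used for larval, pupal and adult cuticle. In the pupa the epidermis first lays down the pupal cuticle and later the adult one beneath it. Many cuticle genes are short, arose by tandem duplication and still sit side by side. Whole pupae hold all tissues, so the epidermis is only a part of the chromatin sampled.

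The authors deposited 4 lists of regions on assembly dm6. Each replicate has a list of 30000 regions, both replicates pooled have a list of 30000, and 8005 regions passed the authors' threshold on the irreproducible discovery rate (IDR). A region counted for a gene when its summit, the authors' point of highest signal, lay within 1000 bp of any transcript start of the gene or inside the gene. Regions are described by the authors' signal value, whose scale is not stated, and by the rank of that value in the list, where rank 1 is the strongest. The IDR list is the strongest 8005 of the pooled list, so a rank is the same in both. No read counts were used and sequencing depth is unknown, and all counts below are descriptions without a test.

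Of the 70 Cpr genes, 13 had an IDR region (18.6%), against 24.5% of all protein-coding genes. The 13 genes were Cpr47Ec, Cpr47Ed, Cpr49Ae, Cpr49Ah, Cpr50Ca, Cpr51A, Cpr62Ba, Cpr64Aa, Cpr66D, Cpr72Eb, Cpr73D, Cpr97Ea and Cpr97Eb. They held 16 IDR regions, of which 4 were in Cpr73D and 1 in each of the others. Cpr genes are short, with a median length of 1094 bp against 2166 bp for all protein-coding genes, so less sequence was searched for each. Among genes under 5 kb the shares were 10 of 63 Cpr genes (15.9%) and 15.8% of all such genes, a comparison chosen after the data were seen. Per Mb of sequence searched there were 69.4 IDR regions at Cpr genes and 66.0 at all protein-coding genes. In the start window alone there were 76.7 per Mb at Cpr genes and 105 at all protein-coding genes. Counted over window and gene together, IDR regions at Cpr genes were thus near the background by number, with 4 of the 16 in Cpr73D, and in the start window alone they were fewer. With the strongest 8005 regions of replicate 2 alone in place of the IDR list 9 Cpr genes had a region, against 24.6% of all, and with those of replicate 1 alone 10 had one, against 25.4% of all.

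The sequences to which the ranks and distances below refer are shown for 6 of the 16 regions as the 101 bases centred on the summit. The first 3 are the best-ranked regions of 3L, then follow 1 region on 3R close to a start, 1 in a Cpr intron and 1 that lies in Cpr73D but beside the start of another gene. They are read from the RefSeq assembly (Release 6, the sequence that dm6 denotes), on the plus strand, and capitals mark a match to TATAAA on either strand.
Cpr72Eb, chr3L:16364321-16364421: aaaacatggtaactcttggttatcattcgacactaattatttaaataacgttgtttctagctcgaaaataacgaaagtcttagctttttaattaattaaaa
Cpr62Ba, chr3L:1829675-1829775: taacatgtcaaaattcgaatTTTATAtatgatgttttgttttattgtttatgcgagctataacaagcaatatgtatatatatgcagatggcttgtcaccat
Cpr64Aa, chr3L:4209877-4209977: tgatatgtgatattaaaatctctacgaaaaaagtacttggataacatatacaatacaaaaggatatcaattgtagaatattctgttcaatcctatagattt
Cpr97Eb, chr3R:27091517-27091617: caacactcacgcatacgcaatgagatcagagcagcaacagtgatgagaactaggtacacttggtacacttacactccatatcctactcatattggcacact
Cpr66D, chr3L:8641229-8641329: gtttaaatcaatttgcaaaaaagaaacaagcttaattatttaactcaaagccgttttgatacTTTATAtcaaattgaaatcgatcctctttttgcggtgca
Cpr73D beside Obp73a, chr3L:16944259-16944359: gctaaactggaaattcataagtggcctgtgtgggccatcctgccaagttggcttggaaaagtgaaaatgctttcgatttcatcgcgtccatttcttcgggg

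The windows are rich in A and T, as are those of the IDR list as a whole. The median GC content was 29.2% over the 16 windows at Cpr genes and 30.7% over all 8005. The 6 windows printed hold no annotated exon base. Every 50-base word of the 16 regions occurred once in the assembly, so reads of that length could be placed there.

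IDR summits at Cpr genes stood back from the transcript start. Within 1000 bp of a start there were 11 IDR regions at Cpr genes, and none of them was closer than 335 bp. Of the 11, 0 lay within 250 bp, 2 between 251 and 500 bp, 5 between 501 and 750 bp and 4 between 751 and 1000 bp. Over all protein-coding genes 1418 of 2846 such regions (49.8%) lay within 250 bp, and the median distance was 722 bp at Cpr genes against 253 bp. Distances are to the nearest start of each gene set, so those at Cpr genes leave out the starts of other genes. Of the 11, only that of Cpr73D at 926 bp was nearer to another gene, 676 bp from a start of Ogdh. The summits just inside the window limit were 840, 898 and 926 bp from the start, at Cpr66D, Cpr47Ec and Cpr73D, and those just outside it 1178, 1189 and 1223 bp, at Cpr97Ea, Cpr47Ec and Cpr72Ea. The 2 Cpr regions within 500 bp were those of Cpr50Ca, 335 bp upstream, and Cpr97Eb, 437 bp upstream. Summits of Cpr genes were upstream of the start in 7 of the 11 (63.6%) and downstream in 4, against 67.8% upstream for all protein-coding genes.

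**Figure D1:**
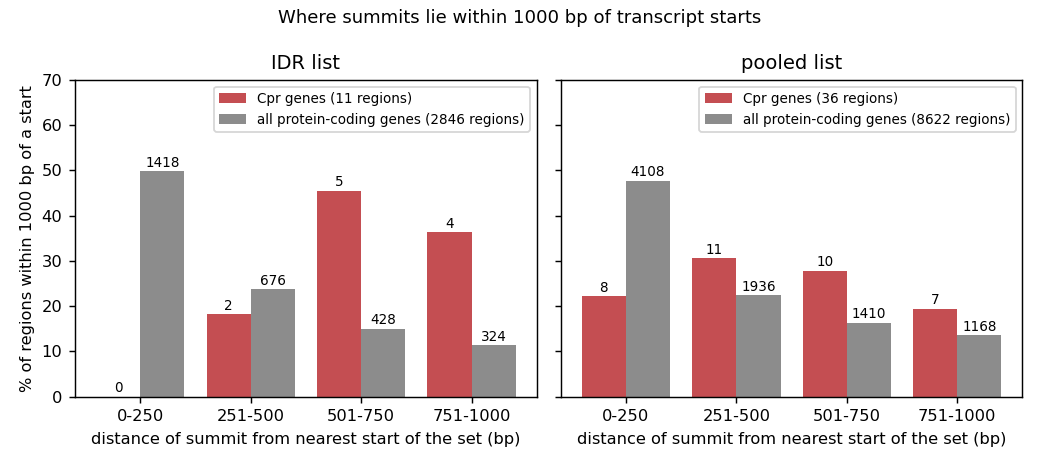
Share of the regions within 1000 bp of a transcript start (vertical axis, %) by distance of the summit from the nearest start of the gene set (horizontal axis, bp), for Cpr genes (red) and all protein-coding genes (grey), in the IDR list (left) and the pooled list (right); numbers over bars are regions. The IDR list has 0 Cpr regions in the first 250 bp, where all protein-coding genes have 1418.

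Counted by genes, 11 of 70 Cpr genes (15.7%) had an IDR region in the start window of 1000 bp, against 20.4% of all protein-coding genes. From replicate 2 alone the count was 9, against 20.2% of all, and from replicate 1 alone 8, against 21.7%. With a window of 500 bp the count was 2 (2.86%) against 16.2%, and with 250 bp it was 0 against 11.7%. The pooled list, which also holds weaker regions, had 36 regions in the start windows of Cpr genes, of which 19 (52.8%) lay within 500 bp, against 70.1% for all protein-coding genes. The closest was 42 bp from the start of Cpr100A. By genes, 21 Cpr genes (30.0%) had a pooled region in the start window, against 36.4% of all. The first 500 bp downstream of Cpr starts are coding sequence for 45.2% of their length, against 40.6% for all protein-coding genes, and the 500 bp upstream for 1.25%, against 10.1%. Of all 8005 IDR summits, 35 lay in coding exons. The part of base composition or coding sequence in these distances was not tested.

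The IDR regions at Cpr genes ranked low. The strongest ranked 1998 and the median rank of the 16 was 5670 of 8005. Their median signal was 209, against 295 for the whole IDR list. The 4002 strongest IDR regions held 2 of the 16, those of Cpr72Eb and Cpr62Ba. By genes that is 2 of 70 (2.86%), against 16.2% of all protein-coding genes. In the start window alone it is also 2 of 70, against 12.3% of all. By feature, 9 of the 16 summits lay in introns, 6 between genes and 1 in a 3' UTR, that of Cpr47Ed. Coding exons held none of the 16, and only 35 of all 8005 IDR summits (0.437%). For the other features no share of all IDR summits is given here. The counts by feature are therefore not read as a trait of Cpr genes.

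The strongest region of the family lay in the 72E cluster, 3 genes in 4.74 kb on 3L. Its summit was 528 bp upstream of Cpr72Eb, in the gap behind Cpr72Ea, with signal 524 and rank 1998 in the IDR list. Replicate 1 listed the region at rank 1943 with signal 217, and its summit was 15 bp away. In replicate 2 no region overlapped it, and the nearest summit of that list was 2038 bp away at rank 14824. The values of 524 and 217 come from different lists and do not say whether replicate 2 held signal. A missing entry in replicate 2 does not show a missing signal there. Of the 2000 strongest IDR regions, 13 (0.65%) overlapped no region of replicate 2. A second IDR region of the cluster was 1223 bp upstream of Cpr72Ea, outside the window, at rank 2650, and both replicates listed it, at ranks 2148 and 3198. Between that region and the start of Cpr72Ea the pooled list had a weak region 292 bp upstream, at rank 15007, which replicates 1 and 2 listed at ranks 15580 and 14824. Cpr72Ec had no region in any list.

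Cpr62Ba, the first gene of the 62B cluster on 3L, had the second strongest region of the family, and both replicates listed it at a similar rank. It ranked 2764 in the IDR list with signal 403, 2627 in replicate 1 with signal 172 and 2921 in replicate 2 with signal 234, and the replicate summits lay 39 and 6 bp from the IDR summit. Cpr62Ba is 7655 bp long with 2 annotated starts, and this summit was 783 bp upstream of the nearer start, inside an intron of the longer transcript. The pooled list held 6 further regions in the gene, ranked from 10400 to 29853. Of its neighbours, Cpr62Bb had no region in any list. Cpr62Bc had a region in both replicate lists, at ranks 19411 and 19548, and none in the pooled list.

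The 49A cluster on 2R holds 8 Cpr genes in 38.5 kb, and 2 of them had an IDR region, both upstream. At Cpr49Ah the summit was 627 bp upstream, at rank 4312 with signal 277. Replicate 1 ranked it 2514 with signal 177 and replicate 2 ranked it 6906 with signal 104. At Cpr49Ae the summit was 722 bp upstream, at rank 5560, and the ranks were 4239 in replicate 1 and 7578 in replicate 2. The other 6 genes, Cpr49Aa, Cpr49Ab, Cpr49Ac, Cpr49Ad, Cpr49Af and Cpr49Ag, had no region in any of the 4 lists. The start of Cpr49Aa was 24868 bp from the nearest pooled summit.

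The 47E cluster on 2R, 7 genes in 26.7 kb, also had IDR regions at 2 genes, and here both lay downstream of the start. The region of Cpr47Ec, 898 bp from the start and past the end of the gene, ranked 5484. Replicate 2 listed it at rank 5726 and replicate 1 had no region there, the nearest summit being 2112 bp away. The region of Cpr47Ed, in its 3' UTR 641 bp from the start, ranked 7261, with ranks of 7897 in replicate 1 and 8175 in replicate 2. It also lay 1189 bp from the start of Cpr47Ec, just beyond the window. The remaining 5 genes of the cluster had no region in any list.

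In the 64A cluster, 4 genes in 8.58 kb on 3L, Cpr64Aa had an IDR region 749 bp upstream at rank 4408 with signal 272. The replicates ranked it 5307 and 4190, with summits 9 and 4 bp from the IDR summit. The summit lies in an intron of CG43367, a gene that spans this place, so it can be counted for either gene. Cpr64Ab, Cpr64Ac and Cpr64Ad had no region in any list.

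The other 5 clusters had no IDR region by the rule. In 65E the pooled list held a region 927 bp upstream of Cpr65Ea at rank 9470, which replicate 1 ranked 11838 and replicate 2 ranked 8976. An IDR region of rank 7145 also lay inside the cluster, but 2174 bp from the nearest start, that of Cpr65Eb. In 76B the best pooled region was in an intron of Cpr76Bc at rank 9299, and replicates 1 and 2 ranked it 10907 and 9281. The pooled list held nothing at the genes of 67F or at Cpr78Ca, Cpr78Cb and Cpr78Cc, and weak regions appeared there in replicate 1 alone, at ranks 20047 to 29024.

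The 65A cluster was the longest of these 5. It spans 30.3 kb on 3L and holds 7 Cpr genes among 11 other genes, of which 10 encode further cuticle proteins (9 Lcp65A genes and Acp65Aa). It contained 0 IDR regions and 1 pooled region, 3331 bp from the start of Cpr65Ay. That region ranked 12209 in the pooled list, and overlapped regions that replicate 1 ranked 7592 and replicate 2 ranked 25557. Inside the span, replicate 1 listed 2 regions and replicate 2 listed 4, among them that at Acp65Aa, at rank 9668. The nearest IDR summit lay 24342 bp from the start of Cpr65Az and 45116 bp from that of Cpr65Av, and Cpr65Aw had a region in replicate 2 alone, at rank 22404. Cpr65Ax1 and Cpr65Ax2 are near-identical copies. In their searched sequence 40.0% and 39.9% of 50-base words occurred once in the assembly. Reads of that length from the rest cannot be placed uniquely, so the empty counts of these genes are uncertain. In the other Cpr genes of this cluster every word was unique.

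**Figure D2:**
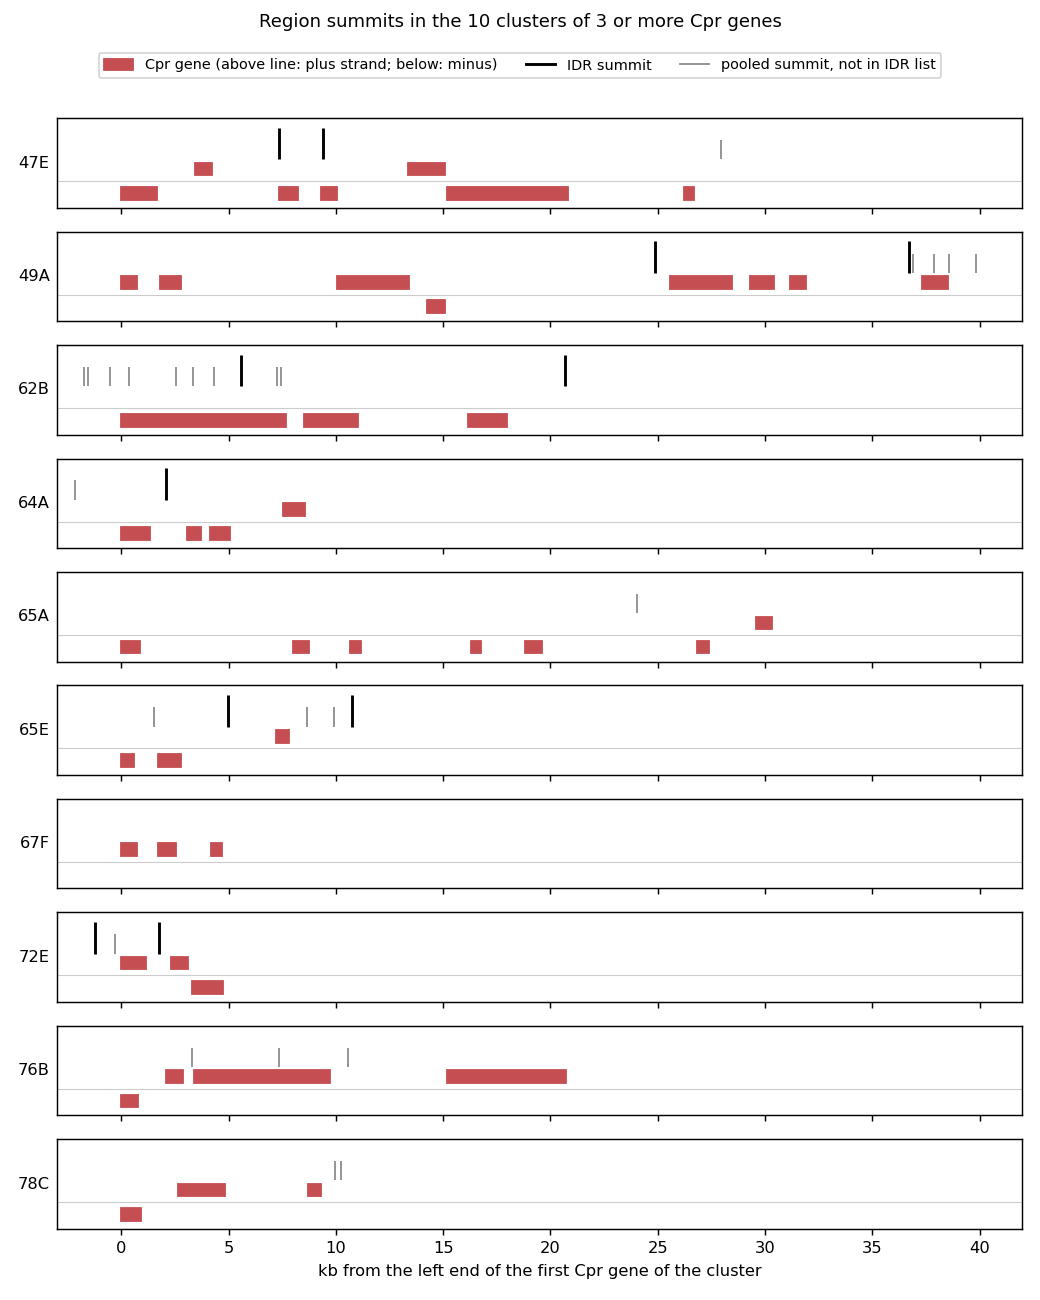
Cpr genes (red boxes, plus strand above the line and minus strand below) and region summits (long black ticks for the IDR list, short grey ticks for pooled regions outside it) in the 10 clusters of 3 or more Cpr genes, by distance in kb from the left end of the first Cpr gene (horizontal axis). The 65A cluster has 0 IDR summits over 30.3 kb, while 72E has 1 inside and 1 just before its 4.74 kb.

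Taking the 10 clusters as stretches of sequence, from the first to the last Cpr gene, they span 169 kb and held 8 IDR regions, or 47.2 per Mb. The 6 chromosome arms and chromosomes held 59.9 per Mb. The pooled list had 21 regions in the clusters, or 124 per Mb, against 224 per Mb overall. Of the 45 clustered genes 7 had an IDR region, and of the 25 genes that stand alone or in pairs 6 had one. Of all protein-coding genes 24.5% had one, and of those under 5 kb 15.8%. Gene lengths differ, up to 18590 bp at Cpr73D outside the clusters, and the part of length in these counts was not tested.

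Among the genes outside clusters, Cpr73D held the most regions, and most of these lay closer to other genes. Cpr73D is 18590 bp long and overlaps the odorant-binding protein gene Obp73a and Ogdh, which encodes a subunit of the oxoglutarate dehydrogenase complex. Its IDR regions ranked 5563, 5567, 7254 and 7736. The first was 52 bp upstream of the start of Obp73a, the third 755 bp downstream and the fourth 676 bp upstream of a start of Ogdh. For the second, at rank 5567, the nearest start was that of Cpr73D itself, 1496 bp upstream. Replicate 1 ranked the region beside Obp73a 3610 and replicate 2 ranked it 9761. Of the searched sequence of Cpr73D 53.8% of 50-base words were unique, although all words of its 4 regions were.

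The pair of genes at 97E on 3R each had an IDR region near the bottom of the list. That of Cpr97Ea lay in an intron 1756 bp from the start, at rank 7526, and the replicates ranked it 8063 and 8029. That of Cpr97Eb lay 437 bp upstream at rank 7730, and the replicates ranked it 6140 and 7284. A further IDR region was 1178 bp upstream of Cpr97Ea at rank 7275, and another 1273 bp upstream of Cpr97Eb at rank 5508, both just outside the window. So each gene of this pair had an IDR region inside the rule and another close beyond it.

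On 2R, Cpr50Ca had the IDR region closest to a start, 335 bp upstream at rank 6091, which replicate 1 ranked 7079 and replicate 2 ranked 5809. A weaker IDR region was 1375 bp upstream, at rank 7703. Its neighbour Cpr50Cb, of 10455 bp, had no region in any list. The IDR region of Cpr51A ranked 5773 and lay in its intron, 1448 bp from its start and 267 bp upstream of the start of CG30197. Replicate 1 ranked it 5238, and replicate 2 had no region overlapping it. On 3L, the region of Cpr66D was in an intron 840 bp from the start, at rank 7682. It was listed by replicate 2 at rank 7624, and no region of replicate 1 overlapped it.

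Overlap with the replicate lists was counted next, which says whether a region was listed and not whether signal was present. Of the 16 IDR regions at Cpr genes, 12 (75%) overlapped a region in both replicate lists, against 96.0% of all 8005. The 4 that did not were those of Cpr72Eb and Cpr51A, not listed in replicate 2, and of Cpr47Ec and Cpr66D, not listed in replicate 1. In all 4 the signal in the IDR list exceeded that of the replicate that listed the region. It was 524 against 217 at Cpr72Eb and 205 against 96.8 at Cpr51A, and 216 against 126 at Cpr47Ec and 150 against 92.3 at Cpr66D. Cpr62Ba, listed by both, also had a higher value in the IDR list, 403 against 172 in replicate 1 and 234 in replicate 2. The scale is not stated, so such differences between lists do not say whether the other replicate held signal. The 16 are not independent of each other, since 2 of the regions of Cpr73D overlap and share a replicate 1 region. Lower ranks could bear on this count, and their part was not tested.

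**Figure D3:**
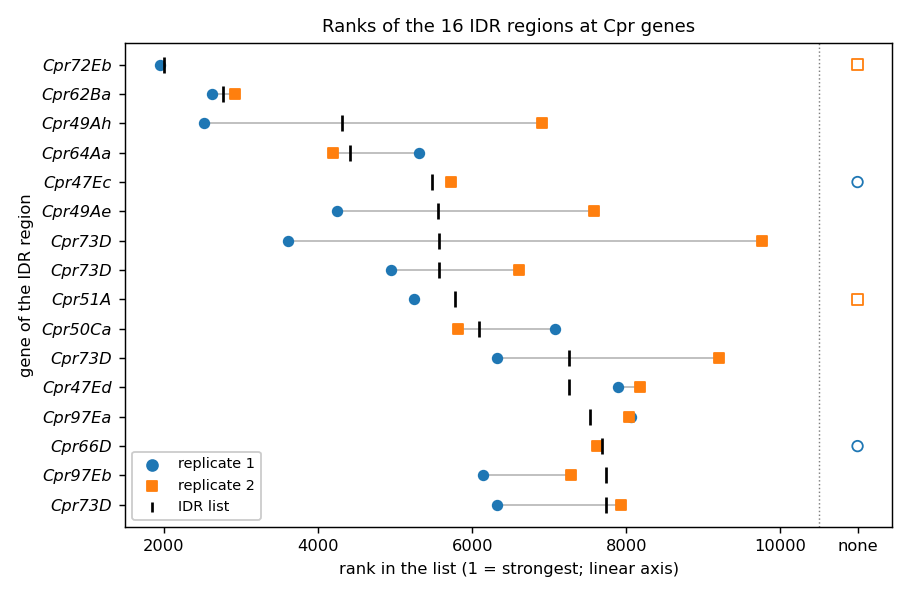
Rank (horizontal axis, 1 is the strongest) of the 16 IDR regions at Cpr genes in the IDR list (black bars) and of the best overlapping region in replicate 1 (blue circles) and replicate 2 (orange squares); open symbols at the right mean that no region of that replicate overlaps. The 4 regions with an open symbol are those of Cpr72Eb, Cpr47Ec, Cpr51A and Cpr66D.

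In the longer lists 21 of 70 Cpr genes (30.0%) had a pooled region, against 38.8% of all protein-coding genes. Replicate 1 had a region at 23 Cpr genes (32.9%), against 45.4% of all, and replicate 2 also at 23 (32.9%), against 39.4% of all. Under 5 kb in length, 17 of 63 Cpr genes (27.0%) had a pooled region, against 29.3% of all such genes. Both replicate lists had a region at 18 Cpr genes, 5 genes had one in replicate 1 alone and 5 in replicate 2 alone. No region in the 4 lists fell on 42 of the 70 genes, among them Cpr23B, Cpr30B, Cpr30F and Cpr35B on 2L and Cpr5C, Cpr11A and Cpr11B on X. For these counts in both, in 1 or in no list, no share of all protein-coding genes is given here. They are therefore not read as a trait of Cpr genes.

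There were 7 Cpr genes with a region in both replicate lists but none in the IDR list, again without a share of all genes beside them. Cpr92F came closest to it, with a region in its intron at rank 8646 in the pooled list, ranked 8727 in replicate 1 and 9615 in replicate 2. Its nearest IDR summit was 74229 bp away from its start, the farthest of any Cpr gene. Next came Cpr76Bc and Cpr65Ea, given above, then Cpr100A (pooled rank 13011), Cpr72Ea, Cpr12A (pooled rank 20928) and Cpr62Bc. At Cpr100A the best region differed between replicates, 288 bp upstream of the start in the pooled list and at rank 9003 in replicate 1, and in the 3' UTR at rank 14564 in replicate 2. Without an overlapping replicate 1 region, Cpr66Cb had a pooled region at rank 17077 and Cpr31A one at rank 24200, both seen in replicate 2.

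**Figure D4:**
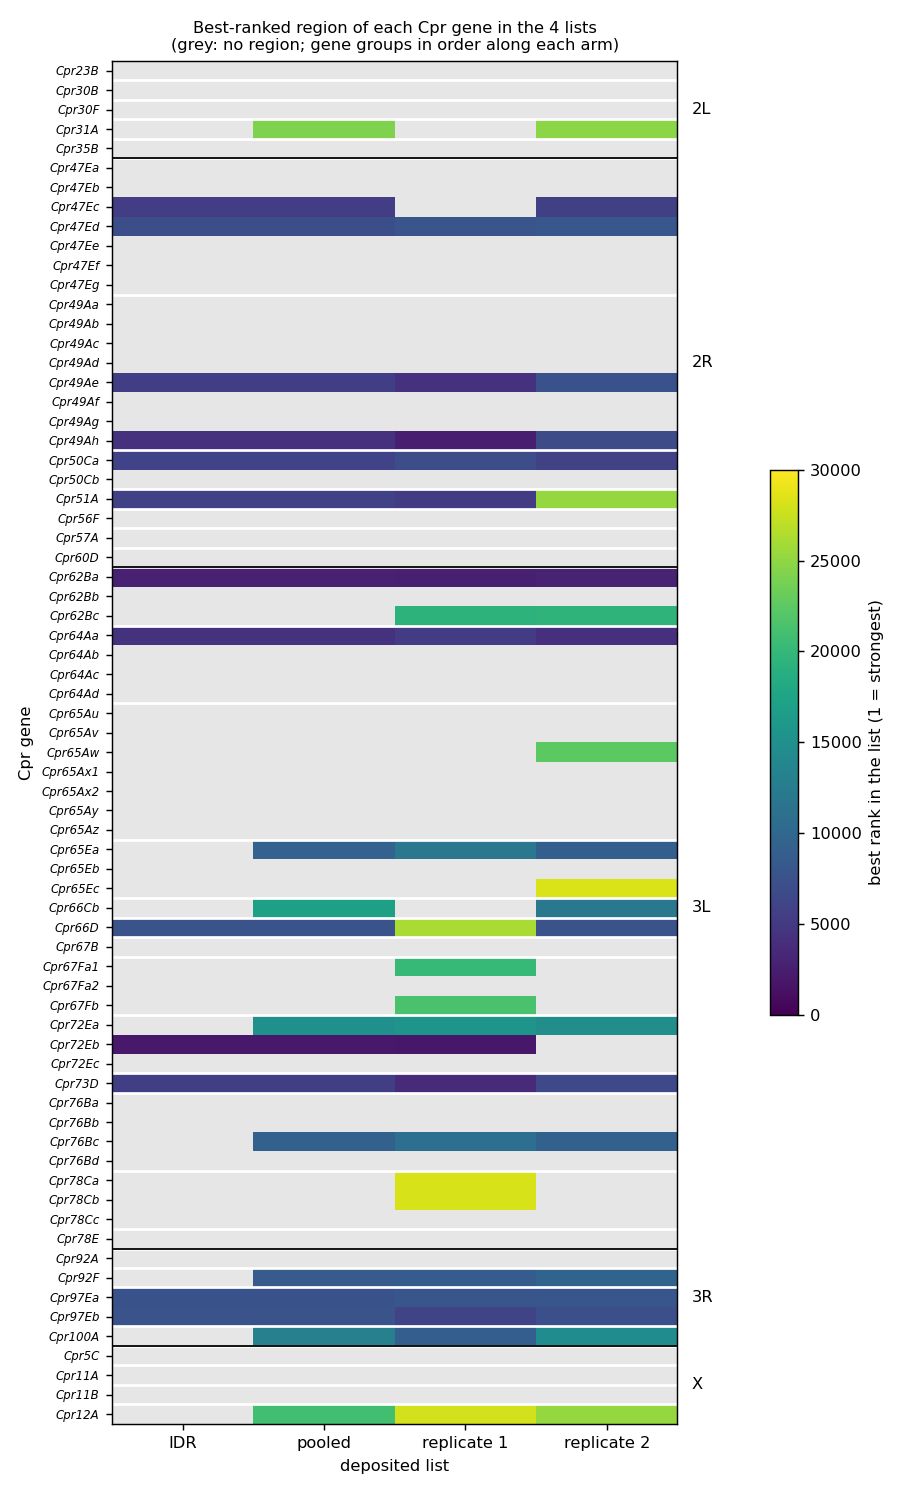
Best rank (colour, 1 is the strongest) of any region at each of the 70 Cpr genes (vertical axis, in order along each chromosome arm) in the 4 lists (horizontal axis); grey means no region, white lines part the genomic groups and black lines the arms. In the IDR list regions fall on 13 genes (18.6%, against 24.5% of all protein-coding genes). In the pooled list they fall on 21 (30.0%, against 38.8% of all). Grey throughout are 42 genes, among them Cpr65Ax1 and Cpr65Ax2, whose empty counts are uncertain. No share of all protein-coding genes is given for the 42, so they are not read as a trait of Cpr genes.

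The promoters of Cpr genes shared features that the choice of genes did not use. In 39 of 70 (55.7%) the gene's own strand held TATAAA, the core of the TATA box, between 45 and 16 bp before the start of the gene, against 8.75% of all protein-coding genes. It was there in 7 of the 13 genes with an IDR region and 32 of the 57 without. Cpr47Ec, Cpr49Ah, Cpr50Ca, Cpr62Ba, Cpr73D and Cpr97Ea had an IDR region and lacked it. The 60 bases before the start are printed for 4 genes with IDR regions and for 1 gene of the 65A cluster. They are given on the gene's strand, with TATAAA in capitals. The genes printed all hold it, so they are examples and do not show how often it occurs.
Cpr72Eb, chr3L:16364839-16364898, plus strand: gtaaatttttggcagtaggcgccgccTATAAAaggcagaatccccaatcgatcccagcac
Cpr64Aa, chr3L:4209179-4209238, minus strand: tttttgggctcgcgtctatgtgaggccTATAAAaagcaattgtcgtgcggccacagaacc
Cpr66D, chr3L:8640379-8640438, plus strand: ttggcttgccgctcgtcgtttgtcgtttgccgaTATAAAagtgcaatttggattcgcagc
Cpr97Eb, chr3R:27091131-27091190, minus strand: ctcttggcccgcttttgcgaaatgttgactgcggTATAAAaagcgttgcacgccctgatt
Cpr65Av, chr3L:6139975-6140034, minus strand: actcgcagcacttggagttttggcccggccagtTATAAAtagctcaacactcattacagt

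Other motifs were counted on both strands from 250 bp before to 50 bp after the gene start. TATCGATA, the DNA replication-related element of many housekeeping promoters, was in 1 of 70 Cpr promoters (1.43%), against 9.37% of all. GAGAG, which GAGA factor binds, was in 23 (32.9%), against 29.8%. AGGTCA, a nuclear receptor half-site, was in 3 (4.29%), against 5.89%. CAAGGNC, a core of the Ftz-F1 site that can overlap AGGTCA, was in 3 (4.29%), against 5.72%. CACGTG was in 1 (1.43%), against 4.24%. In the 101 bases at the 16 IDR summits of Cpr genes, TATAAA was found in 3 (18.8%), against 23.8% of all IDR windows, AGGTCA in 1, at Cpr49Ah, and the other 4 motifs in none. Of all IDR windows, GAGAG was in 9.33%, AGGTCA in 2.12%, CAAGGNC in 1.15%, CACGTG in 0.437% and TATCGATA in 0.30%. A start on the opposite strand, head to head and at most 1000 bp away, was found for 4 of 70 Cpr genes (5.71%), against 33.3% of all protein-coding genes.

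Other genes of cuticle formation were counted by the same rule. None of 28 further cuticle protein genes of the Rebers and Riddiford type outside the Cpr names (the Lcp, Ccp84A and similar genes) had an IDR or a pooled region. In a single replicate list, Acp65Aa had a region at rank 9668 in replicate 2 and Edg78E one at rank 22802 in replicate 1. How much of the sequence of these genes is unique is not given here. Nor had any of 25 Tweedle genes, a family of cuticle proteins that shape the body, an IDR region, and TwdlE alone had a pooled one. Of 9 peritrophin-type genes, the obst genes and Gasp, whose products bind chitin, 0 had an IDR region and 3 had a pooled one, the best at obst-B with rank 8069. These counts stand beside 24.5% and 38.8% of all protein-coding genes, and 15.8% and 29.3% of those under 5 kb. The median lengths of the 3 sets were 750, 1088 and 1293 bp.

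Of 13 genes of chitin synthesis and assembly, 7 had an IDR region. The best ranks were at the chitinase gene Cht7 (1524), the chitin deacetylase gene verm (1623), mmy, which makes the sugar nucleotide for chitin (2287), and knk, which protects and organises chitin (4379). Of 9 tanning genes 3 had one, speck, a dopamine acetyltransferase gene (632), Ddc, the dopa decarboxylase gene (3434), and t, whose product returns acylated dopamine to dopamine (4500). Replicate 2 had no region at Ddc. All 12 ecdysone-cascade and epidermal regulators had one, led by the nuclear receptor genes Eip75B (66), Hr4 (105) and Hr3 (222) and the ETS factor gene Eip74EF (358). These genes are long, with a median of 55679 bp for the regulators, 7564 bp for the chitin genes and 5603 bp for tanning, so more sequence was searched. In the start window alone 8 of 12 regulators, 5 of 13 chitin genes and 2 of 9 tanning genes had an IDR region, against 20.4% of all protein-coding genes.

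**Figure D5:**
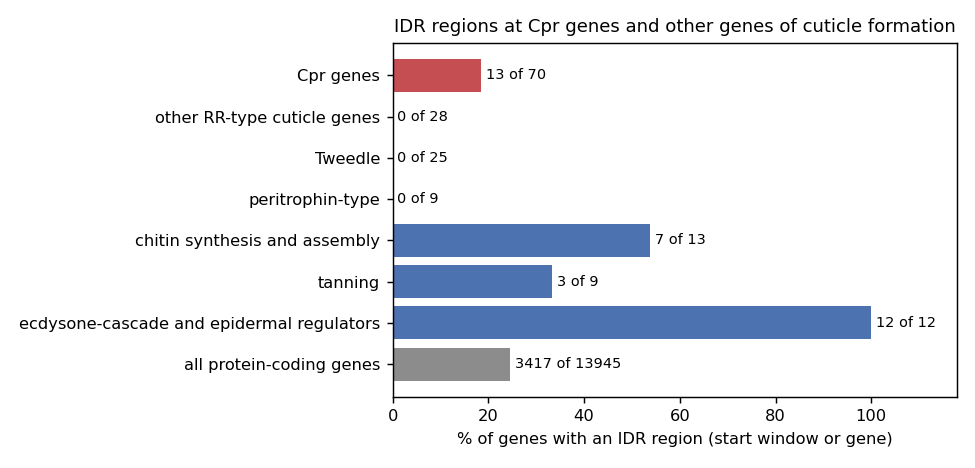
Share of genes with an IDR region in the start window of 1000 bp or inside the gene (horizontal axis, %) for Cpr genes (red), 6 other sets of genes of cuticle formation (blue) and all protein-coding genes (grey), with the number of genes beside each bar. The 3 other sets of structural genes stand at 0, the 12 regulators at 100. The regulator genes are far longer, and 8 of the 12 had an IDR region in the start window alone.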

How the data were processed

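The authors deposited region lists on dm6 for 2 biological replicates, their pool and the IDR threshold. Each list came from the alignments and a control file, per the deposited text files; no source used here gives the aligner, peak caller, filters or threshold. The authors' signal value per region was used within lists, and as ranks between lists of equal length; the deposited −log10 q-values share 1 top value over all IDR regions and were not used. Genes and starts came from Ensembl release 115 without transposable elements, sequence from RefSeq. A genomic cluster is a run of neighbouring Cpr genes at most 50 kb apart. Overlaps between lists needed at least 1 bp. Words of 50 bases were compared over the whole assembly on both strands. The interval search was tested on simulated data. Python 3.11.15 with pandas 2.3.3 and NumPy 2.4.6 was used.

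No test was run, since the labels give 1 group; shares of members stand beside those of all protein-coding genes. The members, lists and rules were chosen with earlier results of these data known. Named are Cpr genes with an IDR region, the best pooled region of each cluster, genes in both replicate lists without an IDR region, and up to 4 of each other list by rank; other names were chosen after their values were seen. Sonication to 200 to 800 bp, per the labels, limits how closely a summit marks a place.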

Additional observations from a re-analysis of the deposited data

How the results depend on the processing

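No paired analysis was possible because the labels give 1 group. The 13 Cpr genes with an IDR region became 8 with a window of 500 bp, 6 with 250 bp and 2 among the 4002 strongest regions; all genes gave 22.6%, 20.7% and 16.2%. The 11 with one in the start window alone became 2, 0 and 2, where all genes gave 16.2%, 11.7% and 12.3%. The 16 regions became 9 with 250 bp and 2 among the strongest 4002, and 11 with 500 bp. Taking the 8005 strongest regions of 1 replicate in place of the IDR list gave 9 to 10 genes, against 24.6% and 25.4% of all genes. In the start window it gave 8 to 9 genes, against 20.2% and 21.7% of all. The regions numbered 10 to 15, the lower count without replicate 1. The 21 genes with a pooled region became 12 with 250 bp, against 33.1% of all genes. In either replicate list they were 23, against 45.4% of all in replicate 1 and 39.4% in replicate 2. The peritrophin-type set had 0 to 1 genes when a replicate was left out. Counting any overlap of the region, 1 start per gene, genes under 5 kb or regions nearest to the gene (12 Cpr genes, 17.1%, against 18.6% of all) stayed within 1.5 times the counts reported. Of 17 Cpr genes whose region overlapped both replicate lists, 15 did so at a reciprocal overlap of 50%. With 20 or 100 kb between neighbours the clusters numbered 10. Depth is unknown, so a missing region is not shown to be a missing signal.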
